A study of Mus musculus with 12 samples.

Results

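The response of zinc handling genes was followed in mouse kidney over 7 genes: the metallothioneins Mt1, Mt2 and Mt3, the metal-sensing transcription factor Mtf1, the zinc exporter Slc30a1 and the zinc importers Slc39a4 and Slc39a10. They were chosen by name as a known gene group, with earlier results of these data known. All 7 were in the deposited table of 52636 genes. The kidneys came from wild-type male mice of the C57BL/6 strain, 8 weeks old, and each of the 4 treatment groups had 3 libraries. Mice of the cisplatin+PCN group were gavaged daily with 40 mg/kg pregnenolone carbonitrile (PCN), a steroidal agonist of the pregnane X receptor of rodents, and were injected once, intraperitoneally, with 20 mg/kg cisplatin, a platinum compound toxic to renal tubule cells. Mice of the cisplatin group were given corn oil in place of PCN and the same injection, those of the PCN group PCN and saline, and the control mice corn oil and saline. The gavage began 4 days ahead of the injection and went on for 3 days, and the mice were killed on the day 4 days later than the injection. The protocol text lists the cisplatin group both with the PCN-pretreated and with the oil-treated mice, so group membership follows the titles of the libraries. The labels do not state that the libraries are separate animals. The p-values therefore describe spread between libraries, part of which may be technical.

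Metallothioneins are small proteins rich in cysteine that bind zinc and copper, and also toxic metals such as cadmium. MTF-1, the product of Mtf1, is activated by free zinc, enters the nucleus and binds metal response elements in the promoters of its targets, of which Mt1, Mt2 and Slc30a1 are the best known. In the mouse, Mt1 and Mt2 are transcribed in most tissues and also respond to glucocorticoids, to interleukin 6 through STAT3 and to oxidative stress, whereas Mt3 is best known from the brain. Slc30a1 encodes ZnT1, which moves zinc out of the cell across the plasma membrane. Slc39a4 and Slc39a10 encode ZIP4 and ZIP10, which bring zinc into the cell, and ZIP4 is best known from the gut.

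The promoter windows of the 3 genes usually named as MTF-1 targets are shown because metal response elements are the sequence through which MTF-1 is known to act on them. Windows were taken from RefSeq (GRCm38.p6) and run from 250 bases before to 50 bases after the start site, which is position 0. Capitals mark the metal response elements found on either strand, searched as TGCACNC and TGCGCNC. The Mt1 window is chr8:94178839-94179138, the Mt2 window chr8:94172368-94172667 and the Slc30a1 window chr1:191906531-191906830, all on the plus strand.
Mt1: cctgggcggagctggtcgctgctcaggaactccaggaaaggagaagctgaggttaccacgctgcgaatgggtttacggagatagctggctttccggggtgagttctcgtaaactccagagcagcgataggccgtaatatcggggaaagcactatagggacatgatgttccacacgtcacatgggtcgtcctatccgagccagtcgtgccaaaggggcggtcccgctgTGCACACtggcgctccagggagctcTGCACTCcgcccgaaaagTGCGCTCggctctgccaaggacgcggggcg
Mt2: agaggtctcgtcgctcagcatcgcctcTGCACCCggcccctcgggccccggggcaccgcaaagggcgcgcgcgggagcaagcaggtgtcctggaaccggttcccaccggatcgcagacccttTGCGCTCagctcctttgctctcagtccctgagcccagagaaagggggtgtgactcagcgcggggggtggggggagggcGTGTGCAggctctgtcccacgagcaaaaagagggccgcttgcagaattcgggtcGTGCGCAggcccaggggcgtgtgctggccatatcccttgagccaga
Slc30a1: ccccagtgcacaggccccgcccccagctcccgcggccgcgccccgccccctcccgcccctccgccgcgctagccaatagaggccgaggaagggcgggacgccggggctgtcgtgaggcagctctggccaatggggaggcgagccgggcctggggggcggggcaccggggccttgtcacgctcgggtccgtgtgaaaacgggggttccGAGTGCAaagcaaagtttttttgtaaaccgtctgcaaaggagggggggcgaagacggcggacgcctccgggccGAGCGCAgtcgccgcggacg

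The Mt1 window held 3 metal response elements, at -23 to -17, 2 to 8 and 20 to 26, all on the strand of the gene. The Mt2 window held 4, at -223 to -217 and -128 to -122 on the strand of the gene and at -50 to -44 and 4 to 10 on the other strand. The Slc30a1 window held 2, at -43 to -37 and 30 to 36, both on the other strand. Of all 32851 promoter windows, 25.7% held at least 1 such element, 7.11% at least 2, 1.97% at least 3 and 0.517% at least 4. The share of G and C bases was 60.7% in the Mt1 window, 67.7% in Mt2 and 73.0% in Slc30a1. Its median over all windows was 52.7%, and shares among windows of like composition were not counted. The Mt3 window held 1, and the windows of Mtf1 and Slc39a10 held none. In all, 6 of the 7 genes matched a window, with 2 windows for Slc39a10.

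Motifs of other known inducers were searched in the same windows on both strands. An antioxidant response element, TGACNNNGC, was found in the Mt2 window at -79 to -71 and in the Slc30a1 window at -82 to -74 on the other strand, and it was in 12.4% of all windows. The STAT motif TTCNNNGAA was found in 1 of the Slc39a10 windows, and it was in 8.30% of all windows. That Slc39a10 window, chr1:46925727-46926026 on the minus strand, lies upstream of the annotated gene, which spans 46807544 to 46892852. The full palindrome of the glucocorticoid response element was in none of these windows and in 3 of all windows. In the first exon of the GENCODE M21 transcript of Mt1, which has 257 bases, the letters TATAAA began at base 129 and 4 metal response elements stood before them. This exon overlaps the end of the Mt1 window, so the elements at 2 to 8 and 20 to 26 are counted in both. In the first exon of Mt2, with 212 bases, TATAAA began at base 90 and 3 elements stood before it. The Mt1 and Mt2 windows both end before these letters, so some elements that stand before TATAAA lie outside the windows. Window positions count from the RefSeq start site, and positions after it in these windows still lie before TATAAA. A match describes the letters and does not show binding.

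**Figure D1:**
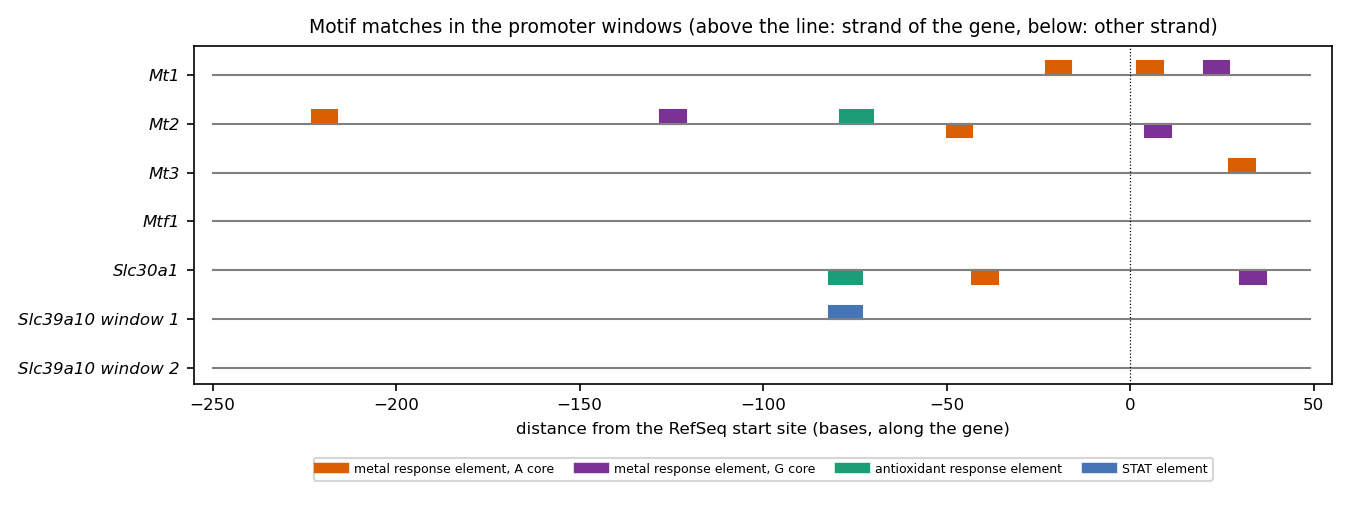
Motif matches in the promoter windows of the members, by distance in bases from the RefSeq start site; boxes above each line lie on the strand of the gene and boxes below on the other strand. Mt2 has 4 metal response elements, Mt1 has 3 and Slc30a1 has 2, and the Mtf1 and Slc39a10 windows have none.

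Expression was read from the deposited FPKM, which divide the fragments of a gene by its length in kilobases and by library size. Libraries held between 18914607 and 26530485 reads assigned to genes, and an FPKM of 1 stood for 18.7 to 27.2 reads per kilobase. Genes that reached an FPKM of 1 in 3 or more of the 12 libraries were tested with limma on log2(FPKM + 1), which left 13540 genes, among them 6 of the 7 members. Slc39a4 lay under this minimum. Mt2 passed through the libraries with cisplatin alone, and Mt3 passed through the 3 cisplatin libraries and 1 PCN library. Groups are said not to overlap where all libraries of one lie above all of the other. If nothing differs, 3 libraries separate from 3 others in this way with a probability of 0.1. The share of all genes that did so was not counted. Among tissue markers, the summed FPKM of 6 proximal tubule genes was 587 to 1208 in cisplatin+PCN, 528 to 667 in cisplatin, 2487 to 2511 in PCN and 2405 to 2555 in control. Fewer cells of a type and less RNA per cell cannot be told apart in these bulk libraries. The summed FPKM of 7 neutrophil genes was 5.11 to 29.4 in cisplatin+PCN, 21.8 to 35.1 in cisplatin, 1.15 to 2.18 in PCN and 2.90 to 4.13 in control, with Mpo at 0 in every group. The summed FPKM of 6 macrophage genes was 56.5 to 102 in cisplatin+PCN, 84.3 to 125 in cisplatin, 63.4 to 73.1 in PCN and 74.3 to 91.9 in control. The 6 erythroid genes summed to 0.198 to 0.659 FPKM in cisplatin+PCN, 0.519 to 6.94 in cisplatin, 337 to 543 in PCN and 318 to 1187 in control. The part of these cell types in the results was not tested.

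Mt1 was the most abundant member in every group, and its level was higher in every library with cisplatin. Mt1 (ENSMUSG00000031765, GRCm38 chromosome 8, from 94179082 to 94180327, plus strand) had 603, 1087 and 893 FPKM in cisplatin+PCN and 1525, 1353 and 1799 FPKM in cisplatin. It had 76.3, 80.5 and 82.7 FPKM in PCN and 84.4, 83.5 and 64.7 FPKM in control. Every library with cisplatin lay above every library without it, every cisplatin+PCN library lay below every cisplatin library, and the PCN and control libraries overlapped. The means were 861 ± 243 in cisplatin+PCN, 1559 ± 225 in cisplatin, 79.8 ± 3.27 in PCN and 77.5 ± 11.1 in control (FPKM, SD, n = 3 each). These values rest on 1803 to 61071 reads per library, and no annotated gene shares exonic bases with Mt1.

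Mt2, the close relative of Mt1 on the same chromosome, moved the same way at a deposited level far below that of Mt1. Mt2 (ENSMUSG00000031762, chromosome 8, from 94172664 to 94173568, plus strand) lies 5513 bases before Mt1. It had 3.25, 6.88 and 5.58 FPKM in cisplatin+PCN and 9.54, 8.39 and 8.80 FPKM in cisplatin. It had 0.595, 0 and 0.315 FPKM in PCN and 0.273, 0.149 and 0.0760 FPKM in control. Libraries with and without cisplatin did not overlap, nor did cisplatin+PCN and cisplatin. The recovered reads summed to 234 in cisplatin+PCN, 363 in cisplatin, 12 in PCN and 6 in control, and a count of 0 in 1 library allows up to 3 reads. Per assigned read, Mt2 was 59.2 times as abundant in cisplatin as in control (95% counting interval 26.9 to 162) and 17.6 times as abundant in cisplatin+PCN as in PCN (9.90 to 34.6). These exact intervals cover counting error only.

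The Mt2 values carry a limit from its neighbour. The antisense gene Gm45774 runs over Mt2 on the minus strand and covers 432 of its 588 exonic bases, or 73.5%, which leaves 156 bases of Mt2 alone. The strandedness of the libraries is not given in the labels, so reads of the shared bases cannot be told apart, and the part of this overlap in the low level of Mt2 was not tested. Gm45774 itself had 57 reads over the 3 libraries of cisplatin+PCN, 58 in cisplatin, 4 in PCN and 2 in control.

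**Figure D2:**
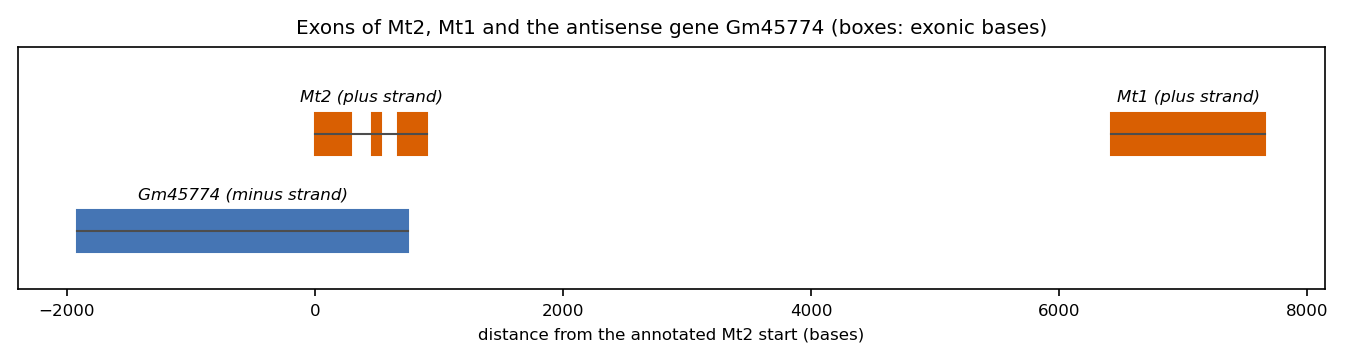
Exons of Mt2, of the antisense gene Gm45774 and of Mt1, by distance in bases from the annotated start of Mt2 (GENCODE M21). Boxes are exonic bases; Gm45774 covers 432 of the 588 exonic bases of Mt2, and none of Mt1.

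Mt3 was low in every group and differed from Mt1 and Mt2 in its order of groups. Mt3 (ENSMUSG00000031760, chromosome 8, from 94152607 to 94154146, plus strand) had 0.187, 0.811 and 0.556 FPKM in cisplatin+PCN and 1.66, 1.50 and 1.41 FPKM in cisplatin. It had 0.820, 1.19 and 0.868 FPKM in PCN and 0.953, 0.658 and 0.839 FPKM in control. Every cisplatin library lay above every control library, and every cisplatin+PCN library lay below every PCN library. The values rest on few reads, with sums of 42 in cisplatin+PCN, 112 in cisplatin, 65 in PCN and 55 in control. Summed neuron markers, 5 genes including Snap25 and Rbfox3, were 0.115 to 0.384 FPKM in cisplatin+PCN, 0.183 to 0.352 in cisplatin, 0.0594 to 0.137 in PCN and 0.115 to 0.194 in control, and Gap43 was at 0 in the first 3 of these groups. Mt4, the metallothionein of stratified epithelium, was listed at 0 except for 4 reads in cisplatin.

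Mtf1, which encodes the zinc sensor itself, stayed in a narrow range. Mtf1 (ENSMUSG00000028890, chromosome 4, from 124802104 to 124849800, plus strand) had 2.17, 2.61 and 2.61 FPKM in cisplatin+PCN and 2.79, 2.95 and 2.48 FPKM in cisplatin. It had 2.43, 2.81 and 2.60 FPKM in PCN and 2.87, 2.99 and 2.98 FPKM in control. The control libraries lay above all PCN and cisplatin+PCN libraries and overlapped the cisplatin libraries. Of its 8907 exonic bases, 721 are shared with 1110065P20Rik on the other strand.

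Slc30a1, the exporter gene, was the second most abundant member in every group. Slc30a1 (ENSMUSG00000037434, chromosome 1, from 191906767 to 191913247, plus strand) had 24.3, 20.0 and 24.3 FPKM in cisplatin+PCN and 18.8, 19.5 and 15.4 FPKM in cisplatin. It had 19.6, 20.6 and 17.4 FPKM in PCN and 18.9, 19.8 and 17.0 FPKM in control. All 3 cisplatin+PCN libraries lay above all cisplatin and all control libraries, while cisplatin, PCN and control overlapped. Of its 5244 exonic bases, 468 are shared with the antisense gene 1700034H15Rik.

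The importers Slc39a10 and Slc39a4 differed in level. Slc39a10 (ENSMUSG00000025986, chromosome 1, from 46807544 to 46892852, minus strand) had 5.46, 7.59 and 5.55 FPKM in cisplatin+PCN and 8.08, 7.31 and 5.37 FPKM in cisplatin. It had 6.71, 6.20 and 7.02 FPKM in PCN and 6.34, 5.76 and 7.12 FPKM in control, and all 4 groups overlapped. Slc39a4 (ENSMUSG00000063354, chromosome 15, from 76612385 to 76616852 in the deposited table, minus strand) had 0.197, 0.371 and 0.249 FPKM in cisplatin+PCN and 0.467, 0.662 and 0.561 FPKM in cisplatin. It had 0.118, 0.229 and 0.270 FPKM in PCN and 0.361, 0.276 and 0.322 FPKM in control, from read sums of 46 in cisplatin+PCN, 88 in cisplatin, 29 in PCN and 45 in control. All cisplatin libraries lay above the libraries of the other 3 groups. Per assigned read, Slc39a4 was 0.477 times as abundant in cisplatin+PCN as in cisplatin (0.327 to 0.690) and 1.91 times as abundant in cisplatin as in control (1.32 to 2.80), counting error only.

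**Figure D3:**
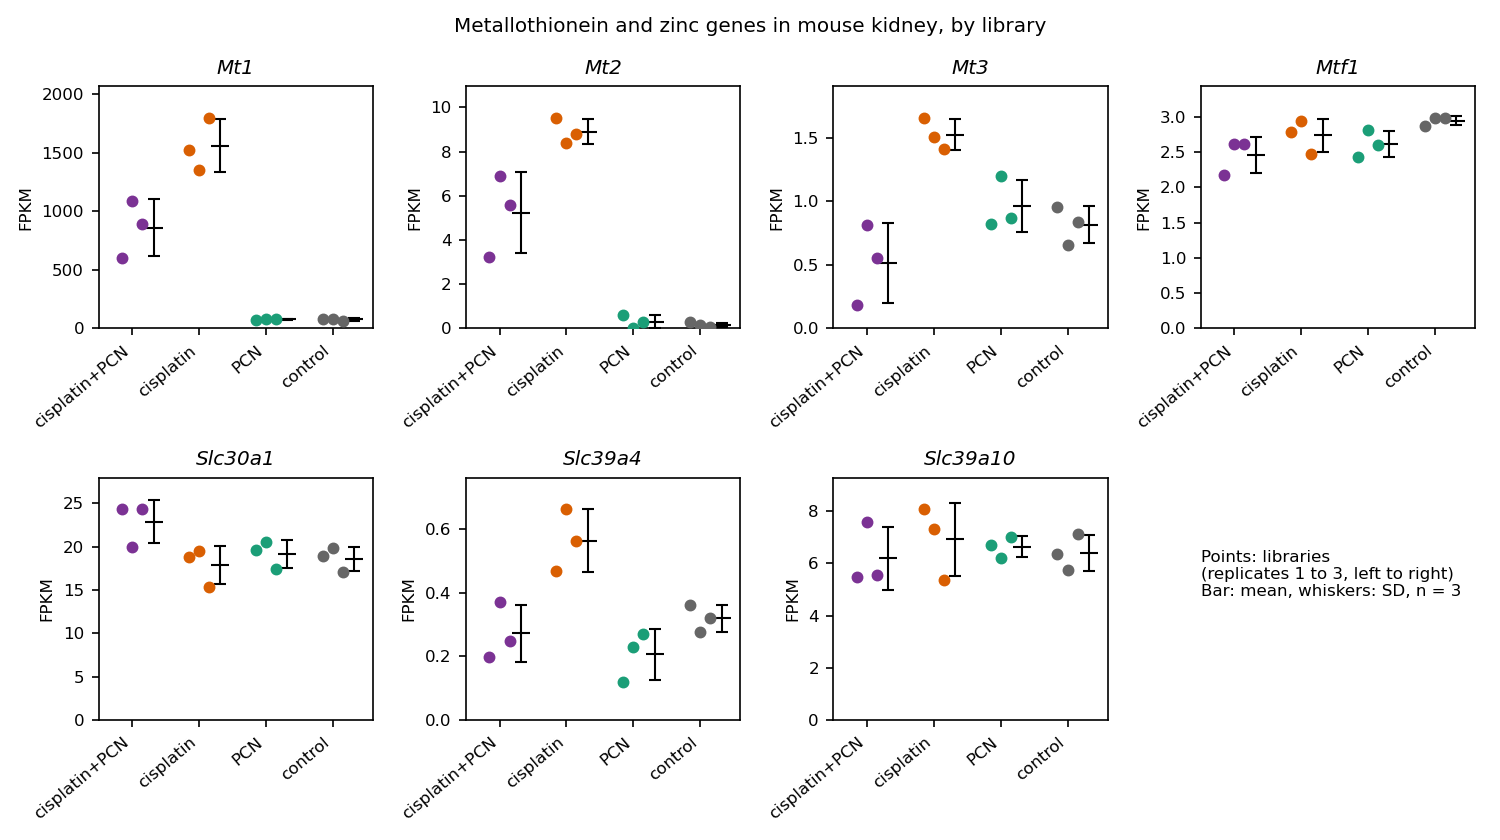
FPKM of the 7 members in each library, one panel a gene with its own linear axis from 0; points are libraries, and the bar and whiskers are the mean and SD of 3 libraries. Mt1 lies at 603 to 1799 FPKM in the 6 libraries with cisplatin and at 64.7 to 84.4 FPKM in the other 6, and Slc39a10 shows no separation of groups.

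By level per kilobase, the order of means in cisplatin+PCN was Mt1, Slc30a1, Slc39a10, Mt2, Mtf1, Mt3 and Slc39a4. In cisplatin it was Mt1, Slc30a1, Mt2, Slc39a10, Mtf1, Mt3 and Slc39a4. In PCN it was Mt1, Slc30a1, Slc39a10, Mtf1, Mt3, Mt2 and Slc39a4, and in control the same with Slc39a4 above Mt2. Mt2 thus ranked 3rd at 8.91 ± 0.581 FPKM in cisplatin and last at 0.166 ± 0.0994 FPKM in control (SD, n = 3 each). Its place in each order carries the limit of the Gm45774 overlap given above. Neighbours in this order overlapped between libraries for Slc39a10 and Mt2 and for Mt3 and Slc39a4 in cisplatin+PCN, and for Mt2 and Slc39a4 in PCN.

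In mice without PCN, cisplatin was compared with control for these genes. Mt1, Mt2 and Mt3 rose, and Mtf1, Slc30a1 and Slc39a10 did not pass limma's test. Mt1 rose by 4.31 ± 0.19 (log2, SE; limma's adjusted p = 4.35e-08), and its mean was 20.1 times that of control. Mt2 rose by 3.09 ± 0.21 on this scale, which understates the change of a gene so low in control (adjusted p = 6.54e-07 in limma, and 5.63e-06 with no filter). Mt2 entered the test through libraries with cisplatin alone, so its call is not independent of the filter on low values. Mt3 rose by 0.48 ± 0.15 (adjusted p = 0.0145 in limma). The call was lost with a pseudocount of 0.1 (adjusted p = 0.0599) and without control replicate 2 (adjusted p = 0.0548). Mt3 entered the test through the cisplatin libraries and a PCN library, so its call is not independent of the filter either. The Mt3 call held with no filter. The 3 calls among 6 tested members stand beside 63.9% of all tested genes called in this comparison, so the count says nothing particular of the group. By size on the log2(FPKM + 1) scale, which understates changes of genes low in control, Mt1 had the 26th largest rise of 13540 genes.

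The other tested members did not pass. The change of Slc30a1 was -0.05 (95% interval -0.29 to 0.19; limma's adjusted p = 0.677). That of Mtf1 was -0.08 (adjusted p = 0.381 in limma) and that of Slc39a10 was 0.08 (95% interval -0.23 to 0.40; adjusted p = 0.623 in limma). Whether the change of Slc30a1 differs from that of Mt1 was not tested.

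Among mice that received PCN, cisplatin again went with higher Mt1 and Mt2. Mt1 was higher by 3.37 ± 0.19 in cisplatin+PCN than in PCN (limma's adjusted p = 4.12e-07) and Mt2 by 2.24 ± 0.21 (adjusted p = 1.33e-05). Mt3 fell by 0.39 ± 0.15 (limma's adjusted p = 0.0496), which held in 5 of the 22 alternative settings and was -0.22 without cisplatin+PCN replicate 1 (adjusted p = 0.166). In this comparison 46.9% of all tested genes were called, against 3 of 6 members. Against control, cisplatin+PCN was higher in Mt1 by 3.43 (limma's adjusted p = 3.69e-07) and in Mt2 by 2.38 (adjusted p = 9.33e-06), 2 of 6 members beside 46.6% of all tested genes. In that comparison Slc30a1 changed by 0.28 (limma's adjusted p = 0.0526), Mtf1 by -0.19 (adjusted p = 0.0631) and Mt3 by -0.28 (adjusted p = 0.142), none past the threshold.

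The comparison of cisplatin+PCN with cisplatin asked what PCN changed in the injured kidney. All 3 metallothioneins fell and none of the other tested members passed. Mt1 fell by 0.89 ± 0.19 on the log2 scale (limma's adjusted p = 0.0169), and its mean in cisplatin+PCN was 0.552 times that in cisplatin. Mt3 fell by 0.75 ± 0.15 (adjusted p = 0.0123 in limma), with a mean of 0.340 times that in cisplatin. Mt3 had entered the test through the cisplatin libraries and 1 PCN library, and with no filter its adjusted p was 0.0311 in limma. Mt2 fell by 0.71 ± 0.21 (adjusted p = 0.0459 in limma), with a mean of 0.587 times that in cisplatin, and its adjusted p was 0.113 with no filter. The 3 members called, all lower, stand beside 15.6% of all tested genes called in either direction and 7.61% called lower. On the log2(FPKM + 1) scale, Mt1 had the 113th largest fall of 13540.

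The calls of these falls depended on the libraries and the fit. The main fit shares 1 spread per gene over all 4 groups, while replicates with cisplatin differed more from one another than those without it. The SE of this comparison therefore draws on the closer PCN and control libraries as well. The Mt1 call was lost when only the groups compared entered the fit (limma's adjusted p = 0.130) and without cisplatin replicate 3 (adjusted p = 0.0673). The Mt3 call was lost with only the groups compared (adjusted p = 0.117). The Mt2 call held in 6 of 22 settings, with adjusted p from 0.00462 to 0.350, and was -0.46 without cisplatin+PCN replicate 1 (adjusted p = 0.108). Cisplatin+PCN replicate 1 had the lowest Mt1, Mt2 and Mt3 values of its group. The proximal tubule marker sum was 587 to 1208 FPKM in cisplatin+PCN and 528 to 667 FPKM in cisplatin, which overlap. That of 3 thick ascending limb genes was 1329 to 1691 FPKM in cisplatin+PCN and 800 to 1175 FPKM in cisplatin, and that of 3 collecting duct genes was 449 to 627 FPKM in cisplatin+PCN and 296 to 425 FPKM in cisplatin, both without overlap. The part of these cell types in the differences was not tested.

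Slc30a1 went the other way without passing. Its change was 0.34 ± 0.11 (limma's adjusted p = 0.0579), and its mean in cisplatin+PCN was 1.28 times that in cisplatin. It passed in 7 of 23 settings, among them quantile normalization (adjusted p = 0.0425), limma-voom on recovered reads (adjusted p = 0.0473) and the fit without cisplatin+PCN replicate 2 (adjusted p = 0.0243). Mtf1 changed by -0.11 (limma's adjusted p = 0.339) and Slc39a10 by -0.13 (adjusted p = 0.541).

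PCN alone gave no call. None of the 6 tested members differed between PCN and control in limma (adjusted p = 1 for each), and 0% of all tested genes were called. Over all genes, 438 had an unadjusted p under 0.05 in limma, and limma-voom also called 0. For Mt1 the change was 0.05 (95% interval -0.37 to 0.48), for Slc30a1 0.04 (-0.20 to 0.28) and for Mt3 0.11 (-0.21 to 0.43). The PCN libraries of Mtf1 lay below those of control without overlap, at a change of -0.13 (95% interval -0.30 to 0.04; unadjusted p = 0.123 in limma). The PCN libraries of Slc39a4, which was not tested, also lay below those of control without overlap. They had 0.118 to 0.270 FPKM in PCN and 0.276 to 0.361 FPKM in control. The ratio per assigned read was 0.637 (95% counting interval 0.385 to 1.04). Such separation has a probability of 0.1 when nothing differs, and its share over all genes was not counted.

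The interaction asked whether the change with cisplatin differed between mice with and without PCN. No member passed in limma, where 0.111% of all tested genes were called. The interaction of Mt1 was -0.94 ± 0.27 (adjusted p = 0.128 in limma), that of Mt2 -0.85 ± 0.30 (adjusted p = 0.175) and that of Mt3 -0.86 ± 0.21 (adjusted p = 0.103). Their unadjusted p-values in limma were 0.0055 for Mt1, 0.0168 for Mt2 and 0.0016 for Mt3. Mt1 passed without cisplatin+PCN replicate 2 (adjusted p = 0.0379), and Mt3 passed without that library (adjusted p = 0.0277) and without cisplatin replicate 2 (adjusted p = 0.0489). Slc30a1 had an interaction of 0.30 ± 0.15 (adjusted p = 0.319 in limma) and Mtf1 of 0.02 (adjusted p = 0.941).

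**Figure D4:**
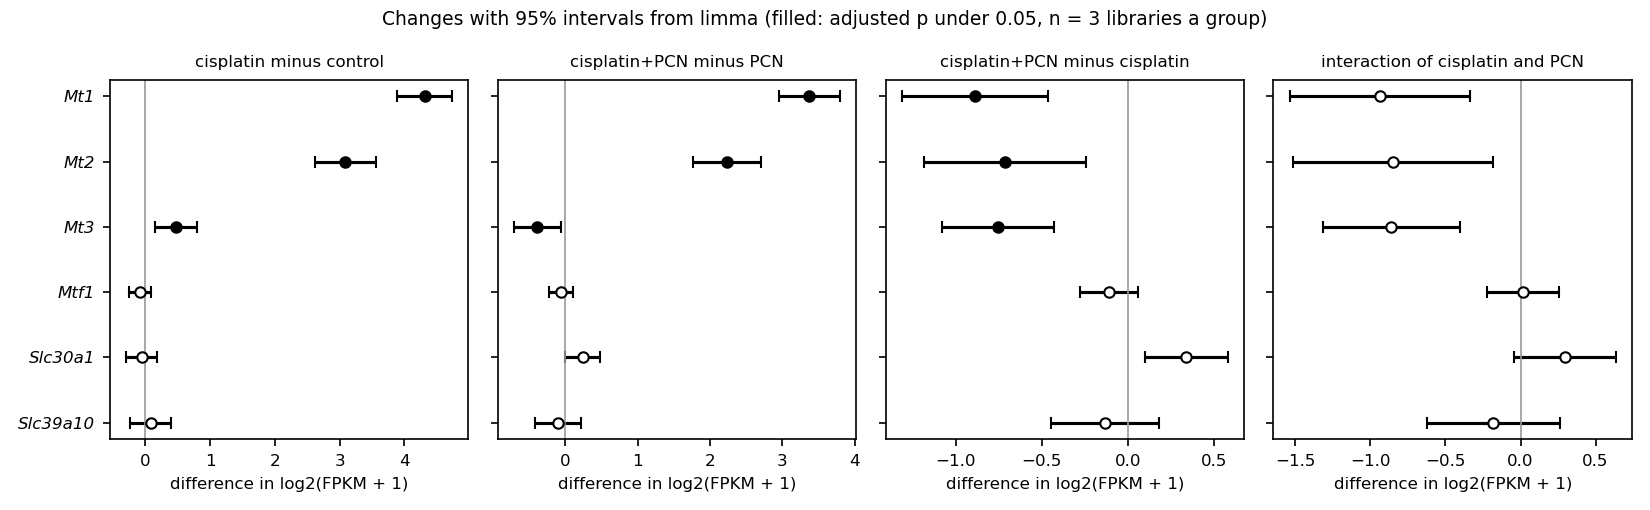
Differences in log2(FPKM + 1) with 95% intervals for the 6 tested members in 4 comparisons, from limma on 3 libraries a group; filled points have an adjusted p under 0.05. Mt1 and Mt2 lie at 4.31 and 3.09 for cisplatin minus control, and in cisplatin+PCN minus cisplatin the 3 metallothioneins lie below 0 with Slc30a1 at 0.34.

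The ratio of Mt1 to Mt2 was compared between libraries with and without cisplatin. Mt1 FPKM were 158 to 204 times Mt2 FPKM in the 6 libraries with cisplatin, and 128 to 851 times in 5 libraries without it; PCN replicate 2, with Mt2 at 0, gave no ratio. The mean log2 ratio was 7.42 with cisplatin and 8.44 without, a difference of -1.02 (exact permutation test, two-sided p = 0.0346, 6 against 5 libraries). The p lay between 0.0556 and 0.0762 in 8 of the 11 repeats of this exact permutation test with 1 library left out, so the call was lost in most of them. With a pseudocount of 1 on both genes the difference was 1.18, with the opposite sign (exact permutation p = 0.00216). The values without cisplatin rest on 1 to 8 reads of Mt2 per library. The direction of this difference therefore depends on how so few reads are treated. The size of the ratio in every library also carries the limit of the Gm45774 overlap with Mt2.

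Other genes of zinc traffic were counted next. These lists and the later ones were chosen with earlier results of these data known. Of 9 other Slc30 genes, whose products mostly move zinc out of the cytosol, 6 were tested, and in cisplatin against control 2 rose and 2 fell (median log2 change -0.24, beside 0.00876 over all tested genes). These shares are near those of all tested genes, of which 32% were called higher and 31.9% lower. Slc30a4, an exporter of intracellular vesicles, rose by 0.77 (limma's adjusted p = 6.54e-05) and Slc30a7, of the Golgi apparatus, by 0.46 (adjusted p = 0.000557). Slc30a9, whose product is found in mitochondria, fell by 0.48 (limma's adjusted p = 0.000528) and Slc30a6 by 0.43 (adjusted p = 0.00135).

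Of 12 other Slc39 importers 10 were tested, and 4 rose and 5 fell (median -0.12), beside 32% of all tested genes called higher and 31.9% lower. Slc39a14, which encodes ZIP14, an importer of zinc and iron that interleukin 6 induces in mouse liver, rose by 1.14 (limma's adjusted p = 0.000284). Slc39a1, an importer of the plasma membrane, rose by 1.07 (limma's adjusted p = 1.54e-07). Slc39a5 fell by 1.41 (adjusted p = 8.30e-05 in limma), and Slc39a8, which encodes ZIP8, an importer that also carries manganese and cadmium, fell by 1.10 (adjusted p = 0.000367).

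All 6 tested genes of a list of 8 further genes that MTF-1 or metals are known to induce rose with cisplatin (median 0.56). Gclc, the catalytic subunit of glutathione synthesis, rose by 1.88 (limma's adjusted p = 3.06e-05), and it is also a target of NRF2. Ndrg1, a stress-response gene, rose by 0.74 (limma's adjusted p = 0.0241), Slc40a1, the iron exporter ferroportin, by 0.62 (adjusted p = 0.00172) and Selenow, a selenoprotein gene, by 0.50 (adjusted p = 0.00338). In this comparison 32% of all tested genes were called higher.

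The same lists were counted for cisplatin+PCN against cisplatin. Of the 6 Slc30 genes 2 rose and 1 fell, of the 10 Slc39 genes 1 rose and 1 fell, and none of the 6 further MTF-1 responsive genes passed (medians 0.13, -0.02 and -0.08, beside 0 over all tested genes). Slc30a9 rose by 0.44 (limma's adjusted p = 0.0124) and Slc30a6 by 0.29 (adjusted p = 0.0466), and Slc30a4 fell by 0.42 (adjusted p = 0.0237). Slc39a5 rose by 0.73 (limma's adjusted p = 0.0314), and Slc39a1 fell by 0.24 (adjusted p = 0.0247). The comparison of cisplatin with control uses the same cisplatin libraries, so both changes of a gene share them. Of all tested genes 7.97% were called higher and 7.61% lower, which is 51.1% of the called genes higher, and with libraries rescaled on genes other than the 50 highest and those of the mitochondrial genome this share was 64.8%. In cisplatin+PCN against PCN, none of the 6 Slc30 genes passed, 3 of the 10 Slc39 genes rose and 4 fell, and 5 of the 6 MTF-1 responsive genes rose, beside 23.5% of all tested genes called higher and 23.4% called lower. No gene of any list passed in PCN against control. The list calls in cisplatin+PCN against cisplatin depended on the fit: over all 8 lists 22 genes were called, against 0 with only the groups compared, 6 with no filter, 48 with array weights, and 4 (without cisplatin replicate 3) to 27 (without cisplatin replicate 2) with 1 library left out.

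**Figure D5:**
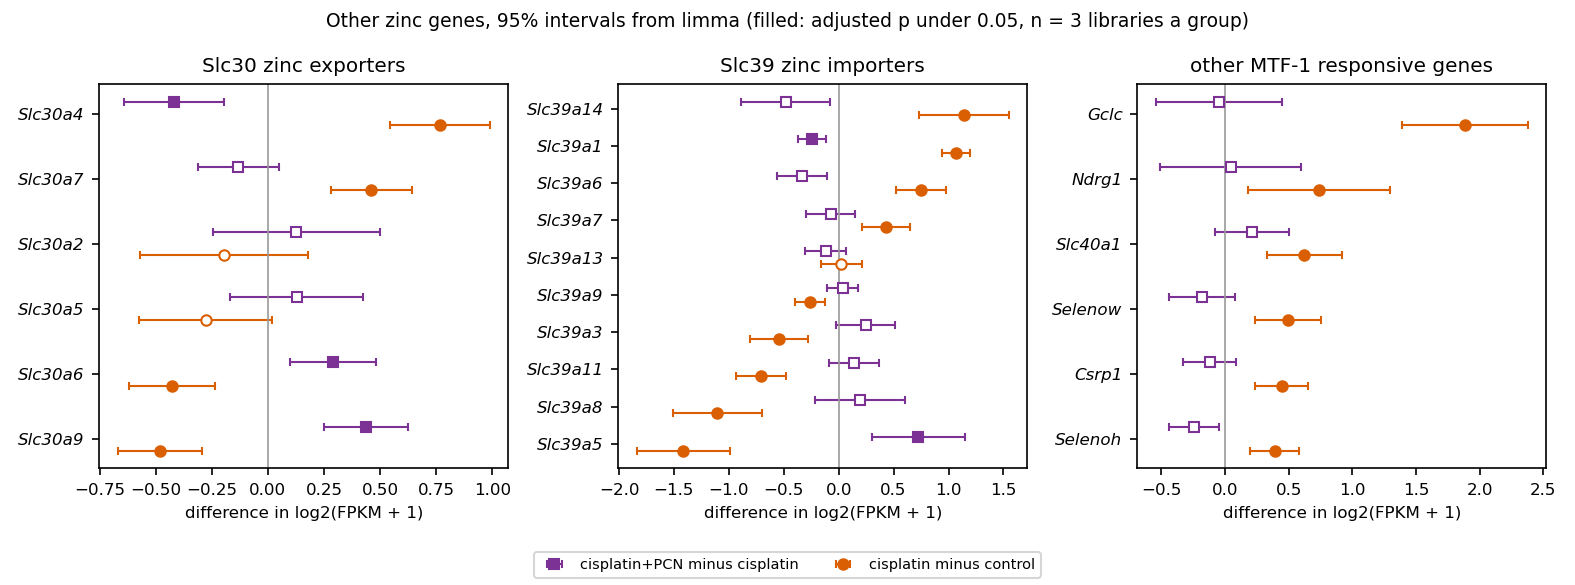
Differences in log2(FPKM + 1) with 95% intervals from limma for the tested Slc30 exporters, Slc39 importers and other MTF-1 responsive genes; squares are cisplatin+PCN minus cisplatin, circles are cisplatin minus control, and filled symbols have an adjusted p under 0.05. Slc39a14 and Slc39a1 lie above 1 and Slc39a5 and Slc39a8 below -1 for cisplatin minus control, and all 6 MTF-1 responsive genes lie above 0 there.

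Genes of the pathways known to induce Mt1 and Mt2 were also counted, in a comparison in which 32% of all tested genes were called higher and 31.9% lower. Of 12 glucocorticoid-responsive genes 11 rose and 1 fell in cisplatin against control (median 1.61), with Ddit4, an inhibitor of mTOR signalling, at 3.53 ± 0.25 (limma's adjusted p = 7.89e-07), and the receptor gene Nr3c1 as the 1 that fell (-0.45). Of 12 tested interleukin 6 and STAT3 responsive genes 11 rose and none fell (median 3.11), with Lrg1, an acute-phase glycoprotein gene, at 5.43 ± 0.21 (limma's adjusted p = 1.67e-08). Of 8 tested genes of the oxidative stress list, which holds NRF2 targets and the NRF2 gene Nfe2l2 itself, 6 rose and 1, Osgin1, fell (median 1.68), with Nqo1, a quinone reductase gene, at 2.24 ± 0.18 (limma's adjusted p = 1.82e-06).

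In cisplatin+PCN against cisplatin these lists differed in their counts. No glucocorticoid-responsive gene passed (median -0.37), 6 of the 12 interleukin 6 and STAT3 responsive genes fell (median -0.79), and 3 of the 8 oxidative stress genes fell (median -0.29), beside 7.61% of all tested genes called lower. With only the groups compared in the fit, none of these genes was called. Fgb, the fibrinogen beta chain gene, fell by 1.56 (limma's adjusted p = 0.000337), Lrg1 by 0.92 (adjusted p = 0.0189) and Nfe2l2, which encodes NRF2, by 0.51 (adjusted p = 0.0201). Fgb was also the 1 gene of these lists that passed in the interaction (-1.63, limma's adjusted p = 0.00909). Whether the lists differ from one another was not tested.

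Copper, the other metal that metallothioneins hold, had its own list. Of 10 tested copper genes 3 rose and 5 fell in cisplatin against control (median -0.10), so 8 of 10 were called, beside 63.9% of all tested genes. Cp, the copper oxidase ceruloplasmin, rose by 3.18 (limma's adjusted p = 3.09e-07), Steap4, a metalloreductase gene, by 1.59 (adjusted p = 4.20e-05) and Atox1, a copper chaperone gene, by 1.003 (adjusted p = 7.00e-07). Slc31a1, which encodes the copper importer CTR1, also known to carry cisplatin into cells, fell by 0.83 (limma's adjusted p = 8.78e-06). In cisplatin+PCN against cisplatin 2 rose and 3 fell, beside 15.6% of all tested genes called, and none was called with only the groups compared. Among them were Cp at -0.68 (adjusted p = 0.0410 in limma) and Ccs, the copper chaperone of superoxide dismutase, at 0.47 (adjusted p = 0.0423).

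All 10 tested genes of enzymes that need zinc in the kidney fell with cisplatin (median -1.49, beside 31.9% of all tested genes called lower). Car4, a membrane carbonic anhydrase gene of the proximal tubule, fell by 2.98 (limma's adjusted p = 8.24e-07), Car14 by 2.63 (adjusted p = 0.000429) and Dpep1, a brush border dipeptidase gene, by 1.89 (adjusted p = 1.72e-06). In cisplatin+PCN against cisplatin 3 of the 10 rose, which were Anpep (0.84, limma's adjusted p = 0.00391), Car4 (0.83, adjusted p = 0.0291) and Car12 (0.43, adjusted p = 0.0449), beside 7.97% of all tested genes called higher. None of the 10 was called with only the groups compared. Several of these enzymes sit in the proximal tubule, whose marker sums were lower in the libraries with cisplatin, and their part in these falls was not tested.

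The genes most like each member over the 12 libraries were found by the root mean square difference of log2(FPKM + 1), each gene centred on its control mean. Socs3, the feedback inhibitor of STAT3 signalling, was nearest to Mt1 (0.214), followed by Plin2, Btg2 and Gc. Socs3 had 20.4 FPKM in cisplatin+PCN, 36.2 in cisplatin and 1.16 in control as means. Those of Mt1 were 861, 1559 and 77.5 FPKM. On the log2(FPKM + 1) scale the changes of Socs3 against control were 3.28 in cisplatin+PCN and 4.09 in cisplatin. Those of Mt1 were 3.43 and 4.31. Adding 1 understates the change of Socs3, which was low in control, more than that of Mt1. Nearest to Mt2 was Cp (0.218), then Gtse1, Il34 and Plin4. Mean FPKM in control and cisplatin were 0.166 and 8.91 for Mt2, and 4.55 and 49.6 for Cp. Adding 1 weighs more on Mt2 here, so likeness on this scale is not likeness in fold change. Nearest to Mt3 were Nap1l1 (0.154), Frzb, Fhl2 and Stmn1, and nearest to Slc30a1 were Wfdc1 (0.0825), Tyw1, Tcta and Exosc7. Nearest to Mtf1 were U2af2 (0.0617), Nap1l4, Uba3 and Lamtor3, and nearest to Slc39a10 were Dennd2d (0.120), Atp2b1, Tmem68 and D5Ertd579e. Likeness describes these libraries, and genes with little change are like many others.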

How the data were processed

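Kidney mRNA was measured in 12 libraries, grouped by their titles. The values are FPKM that the authors deposited for 52636 genes. The submitters' processing notes list HISAT2 2.0.5, featureCounts 1.5.0-p3, DESeq2 1.16.1 and edgeR 3.18.1 with no roles, and a build, mm8. GENCODE M21 (GRCm38) holds 52489 of the identifiers, with identical coordinates for 95.2% of them but not for Slc39a4, so positions are given as GRCm38.

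Products of FPKM and gene length were whole multiples of a step in each library (100% of nonzero values, tolerance 0.001 reads). The reads recovered in this way gave the depth, the 95% Clopper-Pearson counting intervals and the input of limma-voom, an alternative test. Library totals implied by the deposited FPKM were 0.952 to 1.11 times the assigned reads, a scaling that levels between libraries carry. All 12 within-group pairs differed beyond sampling noise, with a chi-square per gene of 4.97 to 78.7, and each library was counted once. It was 18.3 to 78.7 in pairs with cisplatin and 4.97 to 14.4 in pairs without it.

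The main test was limma (3.58.1, R 4.3.3; eBayes with a mean-dependent trend) on log2(FPKM + 1), fitted to all 12 libraries as 4 group means. It was two-sided, p-values were Benjamini-Hochberg adjusted over the 13540 tested genes of each comparison, and calls needed an adjusted p under 0.05. This scale understates fold changes of low genes, and genes low in control could enter through cisplatin libraries alone. Permuting 3 against 3 libraries gives no p below 0.1, so a permutation test was run for the Mt1 to Mt2 ratio alone, over libraries joined by cisplatin. The scripts were tested on simulated data. From each pathway list up to 4 genes per comparison could be named, by largest change among those called, and not all of these were named. Nr3c1 and Osgin1 were named because they were the only genes of their lists called lower in cisplatin against control. The members and lists were chosen with earlier results of these data known. The alternatives comprised other pseudocounts (0.1, 0.5), other filters (none, mean FPKM of 5 or more), other scalings, fits to the compared groups alone, array weights, a block for replicate number, limma-voom and single libraries left out.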

Additional observations from a re-analysis of the deposited data

Results flagged for a closer look

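The interaction of Mt3 was listed because its libraries moved in opposite directions with cisplatin in mice with and without PCN. Every cisplatin+PCN library (0.187, 0.811 and 0.556 FPKM) lay below every PCN library (0.820, 1.19 and 0.868 FPKM), and every cisplatin library (1.66, 1.50 and 1.41 FPKM) lay above every control library (0.953, 0.658 and 0.839 FPKM). The interaction was -0.86 on the log2(FPKM + 1) scale and did not pass limma's test (adjusted p = 0.103). Over the settings tried it lay between -1.95 and -0.70, with adjusted p from 0.00248 to 0.216, and it passed in 3 of 21. The reads summed to 42 in cisplatin+PCN, 112 in cisplatin, 65 in PCN and 55 in control. Mt3 had entered the test through the cisplatin libraries and a PCN library. The share of all genes with such opposite separations was not counted.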

How the results depend on the processing

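The rises of Mt1 and Mt2 in cisplatin against control, in cisplatin+PCN against PCN and in cisplatin+PCN against control kept their direction and call in all settings in which they were tested (Mt1 from 4.19 to 4.41 and Mt2 from 3.03 to 5.58 for cisplatin against control). Counted over all member changes, 341 of 378 values under other settings and 385 of 432 with 1 library left out kept direction and side of the threshold, while 16 and 22 lost a call, 21 and 10 gained one, and 0 and 15 changed sign. Of the counts of list genes called, 80 of 1040 under other settings and 95 of 1152 with 1 library left out moved by over 1.5 times. The cause of these shifts was not tested.

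With a mean FPKM of at least 5, which tests fewer genes and drops Mt2, Mt3 and Mtf1, the genes called were 5197 for cisplatin against control (8649 as reported), 4031 for cisplatin+PCN against PCN (6352), 4000 for cisplatin+PCN against control (6308) and 30 for the interaction (15), and 1 member was called in the first and 1 in the second of these. For cisplatin+PCN against cisplatin (2110 genes), 1008 were called with no filter, 1 with only the groups compared and 6862 with array weights, and the members called (3) were 0 with only the groups compared and 5 with array weights. Array weights, whose estimation stopped before its tolerance was reached, gave 9555 genes and 5 members for cisplatin+PCN against PCN, 4 members for cisplatin+PCN against control and 4315 genes and 4 members for the interaction (0 as reported). Quantile normalization and limma-voom each gave 4 members for cisplatin+PCN against control (2 as reported). With no filter, 2 genes were called for PCN against control, and Slc39a4, tested there alone, had 0.24 for cisplatin against control (limma's adjusted p = 0.0244) and -0.30 for cisplatin+PCN against cisplatin (adjusted p = 0.0540).

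With 1 library left out, genes called ranged from 580 to 3390 for cisplatin+PCN against cisplatin, where members called ranged from 1 to 4, and from 9 to 1066 for the interaction, where members called ranged from 0 to 2. Members called for cisplatin+PCN against control ranged from 2 to 4. Some uncalled changes near 0 crossed 0 when 1 library was left out: for cisplatin against control, Slc30a1 ranged from -0.116 to 0.0441 and Slc39a10 from -0.0221 to 0.234; for PCN against control, Mt1 from -0.0723 to 0.117, Mt2 from -0.0207 to 0.316, Slc30a1 from -0.0145 to 0.108 and Slc39a10 from -0.0162 to 0.117. Likewise Mtf1 ranged from -0.0977 to 0.000878 for cisplatin+PCN against PCN and from -0.0328 to 0.0809 for the interaction, and Slc39a10 from -0.183 to 0.0224 for cisplatin+PCN against control.

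The difference of the log2 ratio of Mt1 to Mt2 was 1.18 with a pseudocount of 1 and ranged from -1.38 to -0.70 with 1 library left out, where exact permutation p was 0.0556 to 0.0762 in 8 of 11. Same-numbered libraries did not deviate together throughout (18 pairs, correlations from -0.28 to 0.37, 4 over 0.1). All 4 over 0.1 joined groups alike in cisplatin, as did the lowest, so this check does not settle whether the numbers pair the libraries. With a replicate block the ratio differed by -1.03 (exact permutation p = 0.0390), and the limma calls of Mt2 for cisplatin+PCN against cisplatin (adjusted p = 0.0770) and of Mt3 for cisplatin+PCN against PCN (adjusted p = 0.0660) were lost. Depth limits Mt2 without cisplatin, Mt3 and Slc39a4, which rest on few reads per library.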
